A study of Mus musculus with 8 samples.

Results

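The cytosolic heat shock proteins and their DnaJ cochaperones were followed in the suprachiasmatic nucleus (SCN), the hypothalamic nucleus that sets circadian time for the whole body in mammals. Members were set by gene symbol, with earlier results of these data known. They were the Dnaja, Dnajb, Dnajc, Hspa, Hspb, Hspd, Hspe, Hsph and Hsp90a families, plus Chordc1, Stip1 and Ahsa1 added by name. The endoplasmic reticulum chaperones Hspa5, Dnajb9, Dnajb11, Dnajc3 and Dnajc10 and the cofactors Hspbp1 and Hspbap1 were left out. This gave 67 of the 19938 genes named on the array. Hsf1, Hsp90ab1 and Hspa1b were not analysed here. The symbols also bring in proteins of other compartments, such as the mitochondrial chaperones Hspd1, Hspe1 and Hspa9.

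All mice were C57BL/6J and were either wild type or Gpr176-/-, which lacks a receptor of the G protein-coupled class, found on SCN neurons and without a known ligand. They had been entrained to a light-dark cycle and were then kept in constant darkness. Tissue was taken in the subjective day, at circadian time 6 (CT6), or in the subjective night, when mice are active, at circadian time 18 (CT18). The 4 groups had 2 arrays each, called A and B, and each array held RNA from the laser-dissected SCN of 10 animals, so the 8 arrays stand for 80 animals. The labels used here give neither age nor sex, nor the part of Gpr176 that was deleted. Values are log2 levels after quantile normalization, and a fold change refers to 2 raised to a log2 difference.

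Heat shock proteins bind unfolded proteins. HSP70 takes up a client through a DnaJ protein (HSP40), which triggers ATP hydrolysis, and HSP110 exchanges the nucleotide so that the client is released. HSP90 receives part of these clients through Stip1, and cochaperones such as Ahsa1 set the pace of its ATP cycle. Small heat shock proteins hold clients without ATP. Under heat or other protein stress the factor HSF1 binds heat shock elements, arrays of the unit GAA in alternating orientation, and induces part of these genes. Other members are made constantly and serve vesicle traffic, splicing or mitochondrial import.

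Within groups the 2 arrays had correlations of 0.996 to 0.998 over all probes. Gpr176, the check of the labels, was lower in each knockout array (8.02 to 8.56) than in each wild-type array (9.31 to 9.87), a difference of -1.30 ± 0.0491 (standard error of the fit; limma adjusted p = 3.37e-06). The SCN markers Avp (10.7 to 11.8), Vip (11.6 to 11.8) and Six6 (9.56 to 9.75) were well expressed in all 8 arrays. Oxt, a marker of neighbouring nuclei, was also bright (11.4 to 12.0), whereas Hcrt, Pmch and Pomc lay under the level filter. The second principal component held 18.1% of the variance and was led by wild type CT18 A (score 9.17) and knockout CT18 A (-8.85). Calls lost or counts left without both of these arrays are given with the results.

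The mean log2 levels of the members ran from 5.04 to 13.2, but levels of different probe sets do not rank genes against one another. A gene was tested when its mean reached 6.82, the 40th percentile of all probes. Of the 67 members 56 were tested and 11 lay under this level: Dnajb7 (5.04), Dnajc5g (5.46), Dnajc5b (5.90), Hspb7 (5.95), Hspa1l (5.98), Dnajc22 (6.08), Dnajb6 (6.11), Hspb3 (6.27), Hspb9 (6.47), Dnajb8 (6.60) and Hspa12b (6.64). Hspb2 (6.86) and Hspb11 (6.87) were just inside it.

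The comparison of subjective night with subjective day asked which chaperone transcripts follow circadian time in the SCN. Over both genotypes 20 of the 56 tested members rose at CT18, led by Dnajb1 (1.99-fold), Chordc1 (1.63-fold), Hsph1 (1.55-fold), Hspb1 (1.47-fold) and Hspa1a (1.43-fold). Another 3 fell, all of the DnaJ class C: Dnajc12, Dnajc27 and Dnajc17. The remaining 33 did not pass. Chordc1, Stip1 and Ahsa1, added by name with earlier results of these data known, are among the 20. They are also in the counts within each genotype and in the promoter counts below. Without both CT18 A arrays the rising calls of Dnaja4, Dnajb4, Dnajc7, Hspa8 and Hspe1 were lost. The falling calls of Dnajc12 and Dnajc27 were lost as well. A gene was called at a limma adjusted p under 0.05, with Benjamini-Hochberg adjustment over the 12452 genes tested. Of all genes tested 10.0% were called higher, 6.79% lower and 16.8% in either direction. The median difference was 0.07 log2 over the members and 0.01 over all genes tested. The 4 arrays of CT18 and the 4 of CT6 did not overlap for 28 of the 56 members, against 21.0% of all genes tested. In bulk tissue a change in RNA per cell and a change in the number of cells of a type cannot be told apart.

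**Figure D1:**
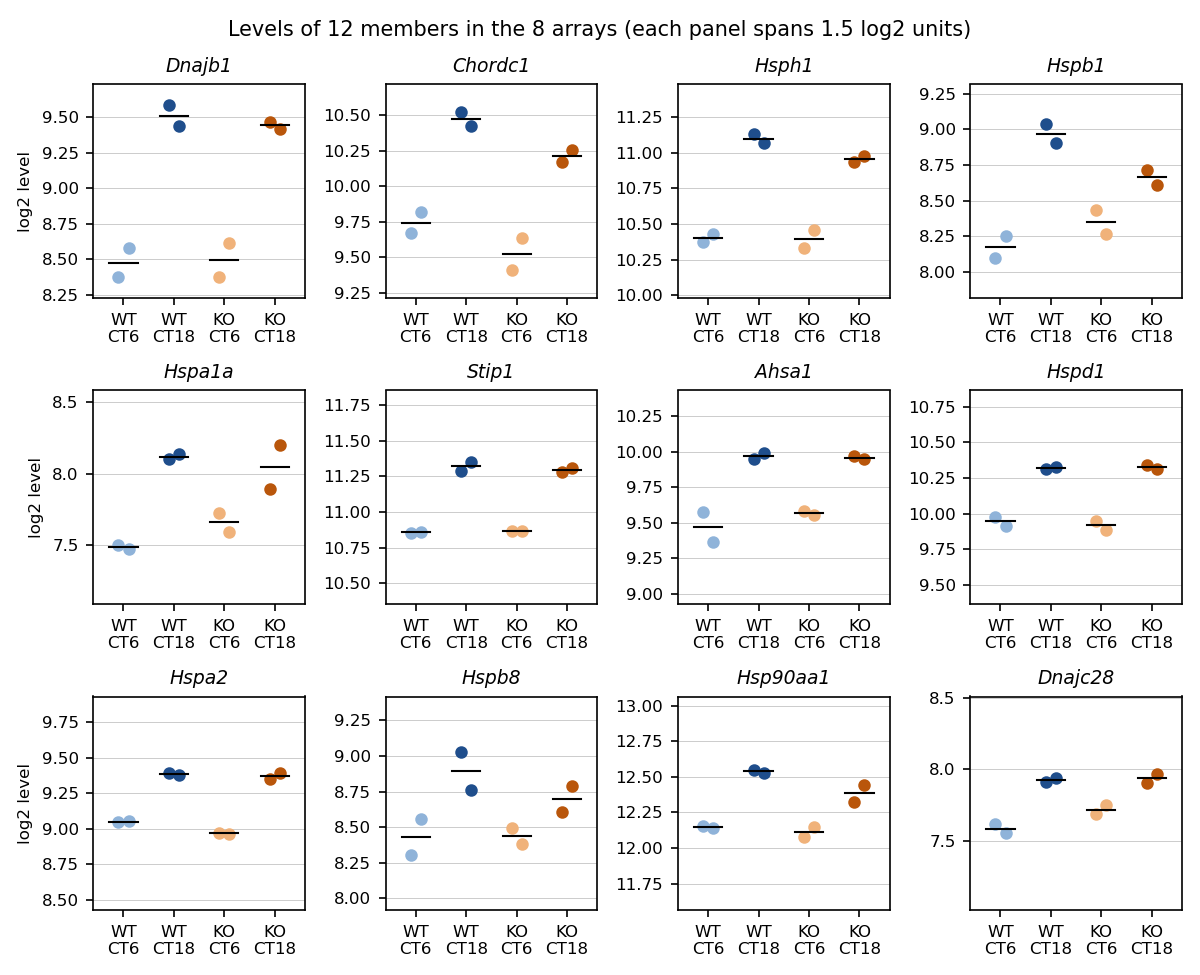
Log2 level (vertical axis) of the 12 called members with the largest difference between CT18 and CT6, by group (horizontal axis); each point is 1 array and each bar the mean of 2. In each of the 12 panels the 4 CT18 arrays lie above the 4 CT6 arrays, and Hspb1 shows the widest gap between the CT18 groups of the genotypes.

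Of the members assigned to HSP90 and its cochaperones 4 of 4 rose, with a median difference of 0.44 log2. Of these, Chordc1, Stip1 and Ahsa1 were added by name, so the count does not describe HSP90 cochaperones in general. Other HSP90 cochaperones are in the cofactor list further below, where 5 of 28 tested genes rose. Chordc1, a zinc-binding HSP90 cochaperone, stood at 9.67 and 9.82 in wild type by day and at 10.52 and 10.42 at CT18. The knockout arrays read 9.41 and 9.64 at CT6 and 10.17 and 10.26 at CT18. Times did not overlap, and within each time both knockout arrays lay below both wild-type arrays. The day-night difference was 0.71 ± 0.0599 (adjusted p = 5.26e-05). The start of Chordc1 carries the longest run of heat shock units among the members that rose. It is shown for that reason, with each GAA or TTC of the run in capitals, from position -8 to position 22 around the RefSeq start (GRCm38.p6, chr9:18292259-18292288, plus strand, with no position 0).
Chordc1: accgGAAcgTTCggGAAaaTTCctGAAgca

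Stip1, the adaptor that joins HSP70 to HSP90, was nearly the same in all arrays of a time. Its levels were 10.85 and 10.86 in wild type and 10.87 and 10.87 in the knockout during the day, against 11.29 and 11.35 in wild type and 11.28 and 11.31 in the knockout at CT18. The times did not overlap, and the difference was 0.44 ± 0.0364 (adjusted p = 4.25e-05). Ahsa1, which activates the HSP90 ATPase, stood at 9.58 and 9.37 in wild type and 9.58 and 9.55 in the knockout at CT6. At CT18 it stood at 9.95 and 9.99 in wild type and at 9.97 and 9.95 in the knockout. The arrays of the times did not overlap, the widest spread was that of wild type at CT6, and the difference was 0.44 ± 0.0495 (adjusted p = 0.000314). Hsp90aa1, the stress-inducible HSP90, stood at 12.16 and 12.14 in wild type at CT6, and at 12.55 and 12.53 at CT18, and the knockout arrays at 12.08 and 12.15 at CT6 and 12.33 and 12.44 at CT18. It rose by 0.33 ± 0.0412 (adjusted p = 0.000625) without overlap between times. Its other probe sets gave 0.33 and 0.37.

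Of the 9 tested members of the HSP70 and HSP110 families 5 rose and none fell. Hsph1, the inducible HSP110, stood at 10.37 and 10.43 in wild type at CT6, and at 11.13 and 11.07 at CT18. The knockout arrays stood at 10.33 and 10.46 at CT6 and 10.93 and 10.98 at CT18. Every CT18 array exceeded every CT6 array, and the difference was 0.63 ± 0.0432 (adjusted p = 1.21e-05). Its relatives Hspa4l (0.26 ± 0.0464, adjusted p = 0.00457) and Hspa4 (0.07 ± 0.0462, adjusted p = 0.356) are also nucleotide exchange factors. Hspa4l was 9.77 in both wild-type arrays at CT6 and 10.07 in both at CT18, and 9.61 and 9.80 against 9.92 and 9.94 in the knockout. Hspa4 stood between 10.62 and 10.75 at CT6 and between 10.66 and 10.84 at CT18, so its arrays overlapped.

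The Hsph1 promoter is printed because it holds heat shock units on both sides of the start. The stretch from -250 to -1 (GRCm38.p6, chr5:149636337-149636586, minus strand) has 1 pair of units at -33 to -26, and 3 alternating units lie at positions 37 to 49, shown in a stretch of 30 bases (chr5:149636287-149636316). Capitals mark the units.
Hsph1 before the start: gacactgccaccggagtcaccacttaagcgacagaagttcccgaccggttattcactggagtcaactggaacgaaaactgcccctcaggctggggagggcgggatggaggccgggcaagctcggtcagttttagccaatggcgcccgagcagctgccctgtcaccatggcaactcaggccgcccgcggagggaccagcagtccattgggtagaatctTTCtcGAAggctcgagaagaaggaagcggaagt
Hsph1 after the start: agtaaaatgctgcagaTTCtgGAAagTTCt

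Hspa1a, the inducible HSP70, stood at 7.50 and 7.47 in wild type at CT6, and at 8.10 and 8.14 at CT18. In the knockout it stood at 7.72 and 7.59 at CT6 and 7.89 and 8.20 at CT18. Times did not overlap, but the knockout CT18 arrays lay 0.31 apart and the lower one was 0.17 above the highest CT6 array. The difference was 0.51 ± 0.0645 (adjusted p = 0.000668). Hspa1a has a near-identical neighbouring copy, Hspa1b, so the probe set may read both. Hspa2, another HSP70, was 9.05 in both wild-type and 8.97 in both knockout arrays at CT6. At CT18 it was 9.39 and 9.38 in wild type and 9.35 and 9.39 in the knockout, with no overlap between times, a rise of 0.37 ± 0.0354 (adjusted p = 0.000119). Hspa8, the constitutive HSP70, stood at 13.05 and 13.13 in wild type and 13.03 and 13.12 in the knockout at CT6. It stood at 13.32 and 13.31 in wild type and at 13.17 and 13.26 in the knockout at CT18. The times came within 0.04 of each other but did not overlap, and the rise was small (0.18 ± 0.0429, adjusted p = 0.0169). Its other probe sets gave 0.20 and 0.20. The Hspa8 call was lost without wild type CT6 A, knockout CT6 A or knockout CT18 B, or without both CT18 A arrays (highest adjusted p = 0.0666). The divergent or compartment-specific members Hspa12a (0.09), Hspa13 (-0.03) and Hspa14 (-0.07) did not pass.

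Among the small heat shock proteins 2 of 5 tested members rose. Hspb1 (HSP27) stood at 8.09 and 8.25 in wild type at CT6, and at 9.04 and 8.91 at CT18. Knockout arrays read 8.43 and 8.27 at CT6 and 8.71 and 8.61 at CT18. Both CT18 arrays of wild type lay above both of the knockout, while at CT6 both lay below. The difference over both genotypes was 0.55 ± 0.0574 (adjusted p = 0.000203), and a second probe set gave 0.55. Hspb8, a small heat shock protein of the autophagy pathway, stood at 8.31 and 8.56 in wild type at CT6, and at 9.03 and 8.76 at CT18. In the knockout it stood at 8.49 and 8.38 at CT6 and 8.60 and 8.79 at CT18. The lowest CT18 array was 0.05 above the highest CT6 array, and the rise was 0.36 ± 0.0775 (adjusted p = 0.0117). Hspb6 (0.03), Hspb2 (0.03) and Hspb11 (0.16, adjusted p = 0.0890) did not pass.

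The Hspb1 promoter from -250 to -1 (GRCm38.p6, chr5:135887669-135887918, plus strand) is shown because its pairs of heat shock units, at -117 to -110 and at -97 to -90, lie apart from each other and form no run.
Hspb1 before the start: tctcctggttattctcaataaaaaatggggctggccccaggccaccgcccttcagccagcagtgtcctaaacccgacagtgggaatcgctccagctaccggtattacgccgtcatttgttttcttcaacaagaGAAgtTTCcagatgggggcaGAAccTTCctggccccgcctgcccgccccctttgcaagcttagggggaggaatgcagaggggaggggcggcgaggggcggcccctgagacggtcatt

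Of the 6 mitochondrial chaperones and their partners 2 rose, the chaperonin pair HSP60 and HSP10. Hspd1 (HSP60) stood at 9.98 and 9.92 in wild type and 9.95 and 9.89 in the knockout at CT6. At CT18 it stood at 10.31 and 10.33 in wild type and 10.34 and 10.32 in the knockout, clear of every CT6 array (0.39 ± 0.0377, adjusted p = 0.000123). A second, dimmer probe set gave 0.55. Hspe1 (HSP10) stood at 10.60 and 10.35 in wild type and 10.46 and 10.45 in the knockout at CT6. At CT18 it stood at 10.65 and 10.75 in wild type and 10.88 and 10.68 in the knockout. Wild type CT6 A and CT18 A came within 0.05 of each other, without overlap. The rise of Hspe1 was 0.27 ± 0.0636 (adjusted p = 0.0172). This call was lost without wild type CT6 B, wild type CT18 B or knockout CT18 A, or without both CT18 A arrays (highest adjusted p = 0.0773). Hspa9, the mitochondrial HSP70 (0.01), Dnaja3, its DnaJ partner (0.06), and the import partners Dnajc15 (0.10) and Dnajc19 (-0.07) did not pass.

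Hspd1 and Hspe1 are transcribed away from each other out of a shared promoter, and the same 4 alternating heat shock units serve both windows (GRCm38.p6, chr1:55088053-55088082). They lie at -144 to -127 from a start of Hspd1 on the minus strand and at -89 to -72 from the start of Hspe1 on the plus strand. The stretch of 30 bases is printed on both strands, with the units in capitals.
Hspd1 strand: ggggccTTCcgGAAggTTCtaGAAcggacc
Hspe1 strand: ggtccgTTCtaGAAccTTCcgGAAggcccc

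Among DnaJ proteins of class A, the broad HSP70 partners, 2 of 3 rose. Dnaja1 stood at 10.30 and 10.24 in wild type and 10.15 and 10.27 in the knockout at CT6. At CT18 it stood at 10.50 and 10.52 in wild type and 10.50 and 10.54 in the knockout, above every CT6 array (0.28 ± 0.0413, adjusted p = 0.00181). A second probe set gave 0.17, with 0.27 in wild type and 0.08 in the knockout. The probe set used gave 0.24 and 0.31, so the 2 differed in the knockout. Dnaja4 rose by 0.21 ± 0.0646 (adjusted p = 0.0492), and Dnaja2 stood at -0.05 (adjusted p = 0.399). The Dnaja4 call was lost in 8 of 16 alternatives (highest adjusted p = 0.159), among them the omission of wild type CT6 A, CT18 A or CT18 B or of knockout CT6 A, CT18 A or CT18 B.

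Class B holds the member with the largest difference of all 56. Dnajb1, the main inducible HSP40, stood at 8.38 and 8.58 in wild type at CT6, and at 9.59 and 9.44 at CT18. Knockout arrays read 8.37 and 8.62 at CT6 and 9.47 and 9.42 at CT18. The closest arrays of the times were 0.80 apart, and the difference was 0.99 ± 0.0668 (adjusted p = 1.08e-05). Its promoter is shown as a contrast to those above, since neither of its windows held a pair of heat shock units (GRCm38.p6, chr8:83607925-83608174, plus strand, -250 to -1). This says only that these letters are not in the windows searched.
Dnajb1 before the start: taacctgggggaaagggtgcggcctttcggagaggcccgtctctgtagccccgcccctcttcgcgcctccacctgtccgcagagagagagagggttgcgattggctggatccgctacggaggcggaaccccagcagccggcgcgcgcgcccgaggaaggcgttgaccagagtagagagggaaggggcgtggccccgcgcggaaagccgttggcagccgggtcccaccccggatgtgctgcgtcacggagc

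In all 3 of the 8 tested class B members rose and none fell. Dnajb2, a DnaJ protein that binds ubiquitin chains (0.19 ± 0.0416, adjusted p = 0.0132), and Dnajb4 (0.15 ± 0.0411, adjusted p = 0.0326) were the others. The Dnajb2 call was lost without wild type CT6 B or wild type CT18 B (highest adjusted p = 0.0527). The Dnajb4 call was lost in 11 of 16 alternatives (highest adjusted p = 0.150), including the omission of each array in turn except wild type CT18 B. Dnajb12 (-0.11) and Dnajb14 (0.06), both anchored in the endoplasmic reticulum, Dnajb5 (-0.10), Dnajb3 (0.12) and Dnajb13 (-0.05) did not pass.

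Class C, the most varied family of J proteins, had 2 of 21 tested members higher, 3 lower and a median of -0.02. Dnajc28 stood at 7.61 and 7.56 in wild type and 7.68 and 7.75 in the knockout at CT6. At CT18 it stood at 7.91 and 7.94 in wild type and 7.90 and 7.97 in the knockout, without overlap (0.28 ± 0.0392, adjusted p = 0.00120). Dnajc7, an HSP70 and HSP90 cochaperone, rose by 0.15 ± 0.0428 (adjusted p = 0.0374). That call was lost in 10 of 16 alternatives (highest adjusted p = 0.196), including the omission of any single array other than wild type CT6 A and knockout CT6 B.

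The 3 members that fell did so by small amounts. Dnajc12, a partner of the aromatic amino acid hydroxylases, stood at 8.93 and 9.15 in wild type at CT6, and at 8.78 and 8.71 at CT18. Knockout arrays read 9.27 and 9.16 at CT6 and 8.93 and 8.99 at CT18. Knockout CT18 overlapped wild type CT6 A, but within each genotype the times did not overlap. The difference was -0.27 ± 0.0542 (adjusted p = 0.00824). Dnajc27, a J protein with a Rab-like GTPase domain, fell by 0.20 ± 0.0393 (adjusted p = 0.00750). Without both CT18 A arrays neither of these calls held (adjusted p = 0.0575 for Dnajc12 and 0.0509 for Dnajc27), which left 1 falling member.

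Dnajc17, a J protein linked to splicing, stood at 8.74 and 8.80 in wild type at CT6, and at 8.49 and 8.32 at CT18. In the knockout it stood at 8.66 and 8.58 at CT6 and 8.67 and 8.55 at CT18. The fall over both genotypes (-0.19 ± 0.0513, adjusted p = 0.0337) thus came with separated arrays in wild type and overlapping arrays in the knockout. It was lost in 8 of 16 alternatives (highest adjusted p = 0.116), including the omission of wild type CT6 A, CT6 B or CT18 B, or of knockout CT6 A or CT18 B. Dnajc5, the cysteine string protein of synaptic vesicles (0.00 ± 0.0350), Dnajc6, the clathrin-uncoating protein auxilin (-0.09 ± 0.0366), and Dnajc13, an endosomal protein (-0.05 ± 0.0350), did not pass. Dnajc13 had 15 probe sets, and the differences of the other 14 ran from -0.18 to 0.04.

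**Figure D2:**
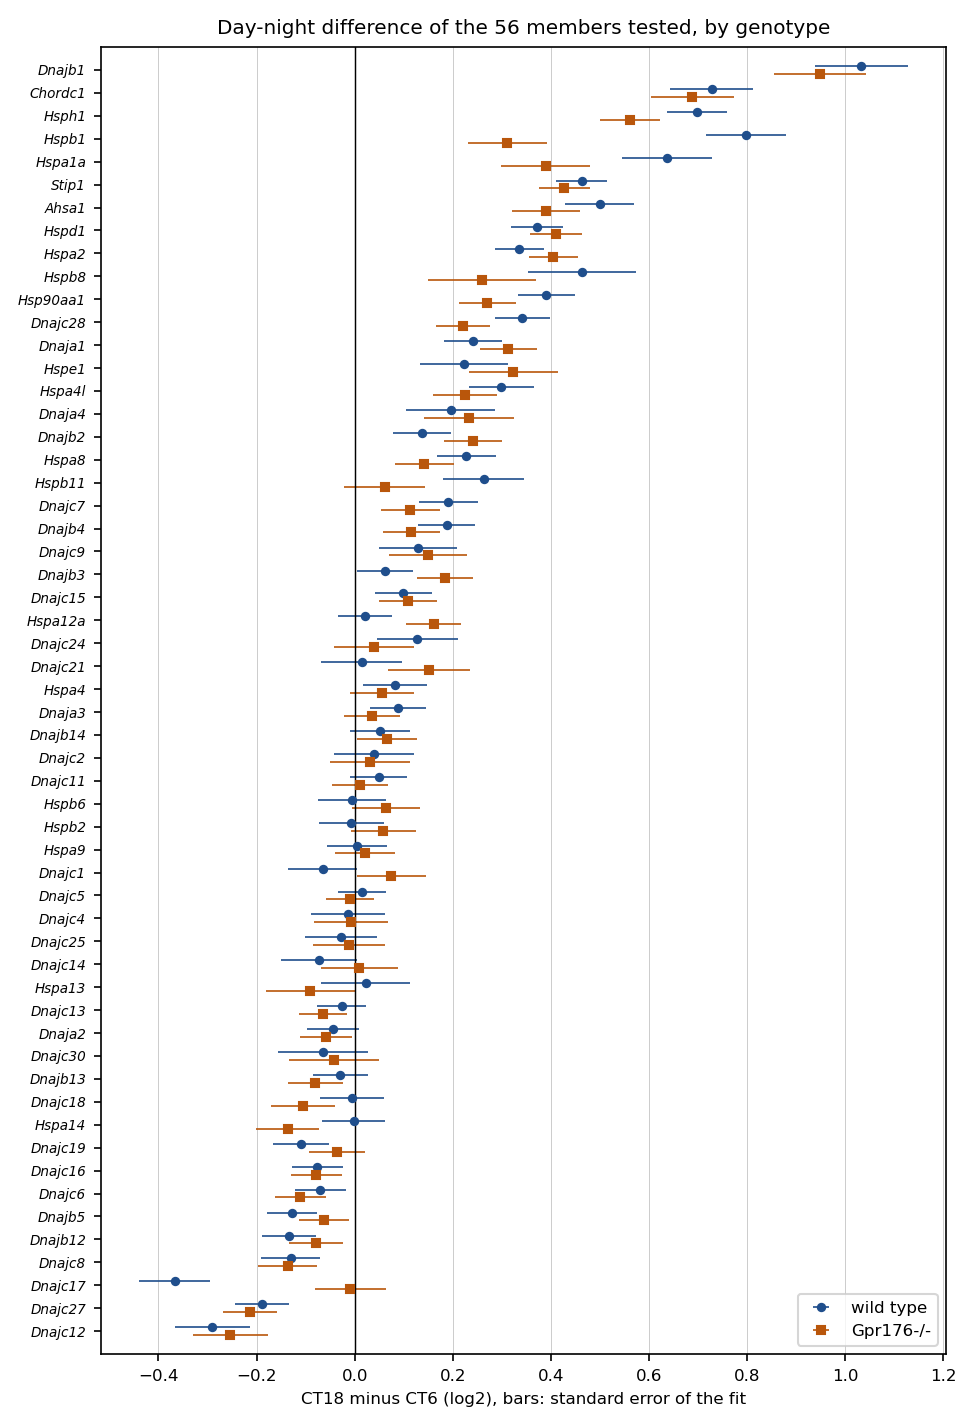
Difference CT18 minus CT6 (horizontal axis, log2) of the 56 members tested, ordered by the difference over both genotypes, with wild type as circles and Gpr176-/- as squares; bars are standard errors of the fit. Dnajb1, Chordc1 and Hsph1 lead in the order, most class C members lie near 0, and the symbols of Hspb1 and Dnajc17 are the farthest apart.

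The day-night change was then taken within each genotype. The differences come from arrays that the genotypes do not share, but the spread of each gene was estimated from all arrays together. Calls in wild type and in the knockout are therefore not independent of each other, and a call in both is not a replication on separate data. In wild type 14 members rose and 1 fell, which is 26.8% of the 56 against 6.94% of all genes tested (4.40% higher and 2.54% lower). In the knockout 13 rose and 1 fell, which is 25% against 7.16% (3.63% higher and 3.53% lower). The arrays of the times did not overlap for 41 members in wild type and 39 in the knockout, against 52.2% and 52.5% of all genes. Called in both were 12 members: Ahsa1, Chordc1, Dnaja1, Dnajb1, Dnajc28, Hsp90aa1, Hspa1a, Hspa2, Hspb1, Hspd1, Hsph1 and Stip1. They make up 80.0% of the wild-type list and 85.7% of the knockout list. The difference had the same sign in both genotypes for 50 of the 56 members. Neither the overlap of the lists nor the agreement in sign was computed over all genes tested. Whether the members differ from other genes in this is therefore not known. Dnajb1 rose by 1.03 in wild type and 0.95 in the knockout, Chordc1 by 0.73 and 0.69, Hsph1 by 0.70 and 0.56, Stip1 by 0.46 and 0.43 and Hspd1 by 0.37 and 0.41.

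The wild-type count of 15 became 11 when CT6 B was left out and 12 when any other wild-type array was. The knockout count of 14 became 7 when its CT6 A array was left out, 8 for CT6 B, 8 for CT18 A and 6 for CT18 B, and it was 9 with no level filter. Without both CT18 A arrays the counts were 10 in wild type and 7 in the knockout. Chordc1, Dnajb1, Hspd1, Hsph1 and Stip1 were called in both genotypes in each of the 16 alternatives. Hspb1 in the knockout was at the threshold (0.31 ± 0.0812, adjusted p = 0.04998) and passed in 2 of 16 alternatives. Dnajc28 in the knockout (0.22) passed in 2 of 16 and Dnajc27 (-0.21) in 3 of 16. The wild-type call of Dnaja1 was lost in 10 of 16 alternatives (highest adjusted p = 0.200), among them the replicate block and the omission of each wild-type array. Its knockout call was lost in 5 (highest adjusted p = 0.0951), among them the mean of all probe sets.

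Calls that differed between the genotypes were not shown to differ in size. Hspa4l, Hspb8 and Dnajc17 were called in wild type and not in the knockout, and Dnajb2 and Dnajc27 the other way round. The wild-type call of Hspa4l was lost without any one of the wild-type arrays (highest adjusted p = 0.167), that of Hspb8 without CT6 A or CT18 A (highest adjusted p = 0.218), and that of Dnajc17 without any wild-type array other than CT18 A (highest adjusted p = 0.105). The knockout call of Dnajb2 was lost in 9 of 16 alternatives (highest adjusted p = 0.172), among them the values as deposited, the replicate block and the omission of each knockout array. In the test of the difference itself, the interaction, limma called 0 of 56 members, as it called 0 of all genes (0%). At an unadjusted p under 0.05 there were 2 members and 605 of all genes. These 2 were Hspb1, with 0.80 in wild type and 0.31 in the knockout, and Dnajc17, with -0.37 and -0.01. The interaction was -0.49 ± 0.115 for Hspb1 (unadjusted p = 0.00191) and 0.36 ± 0.103 for Dnajc17 (unadjusted p = 0.00623), and the adjusted p was 0.944 for both. Of the 20 rising members 14 rose more in wild type and 6 more in the knockout, with medians of 0.36 and 0.31. The interaction was above 0 for 25 of the 56 members and for 44.7% of all genes tested. Its median over all genes was -0.01, and it was -0.05 with the values as deposited or median centred. The gap between the 2 medians of the rising members was not tested.

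For the leading risers the interaction is given with the 95% interval of the fit. It was -0.08 for Dnajb1, with an interval from -0.38 to 0.22. For Hsph1 it was -0.14 (-0.33 to 0.06), and for Hspa1a -0.25 (-0.54 to 0.04).

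Loss of Gpr176 was tested by setting the knockout beside wild type at CT6, at CT18 and over both times. Limma called 0 of 56 members in each of these 3 comparisons, against 0.0241% of all genes over both times and 0.00803% at either time. At an unadjusted p under 0.05 there were 5 members over both times, 5 at CT6 and 7 at CT18, beside 1496, 528 and 1558 of the 12452 genes tested. With an intensity trend in the variances limma again called 0 members. Over both times the arrays of the genotypes did not overlap for 1 member, Dnajc5 (0.03), against 4.22% of all genes. The smallest p over both times was that of Chordc1, lower in the knockout by 0.24 ± 0.0599 (95% interval -0.37 to -0.11, adjusted p = 0.342). The gap was -0.22 at CT6 and -0.26 at CT18, without overlap within either time, which also held for 32.8% of all genes at CT6 and 45.8% at CT18. Dnajc12 was higher in the knockout by 0.19 ± 0.0542 (0.07 to 0.32, adjusted p = 0.342).

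Dnajc15, a mitochondrial J protein, stood at 9.60 and 9.68 in wild type and 9.77 and 9.76 in the knockout at CT6, and at 9.79 and 9.68 against 9.88 and 9.86 at CT18. The knockout arrays lay above those of wild type within each time, and the difference of 0.13 ± 0.0414 did not pass (adjusted p = 0.353). At CT18 Hspb1 had the smallest unadjusted p of these genes, at -0.31 ± 0.0812 (adjusted p = 0.319). The intervals for the leading members of the day-night comparison were -0.17 to 0.13 for Dnajb1 and -0.17 to 0.02 for Hsph1 over both times.

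**Figure D3:**
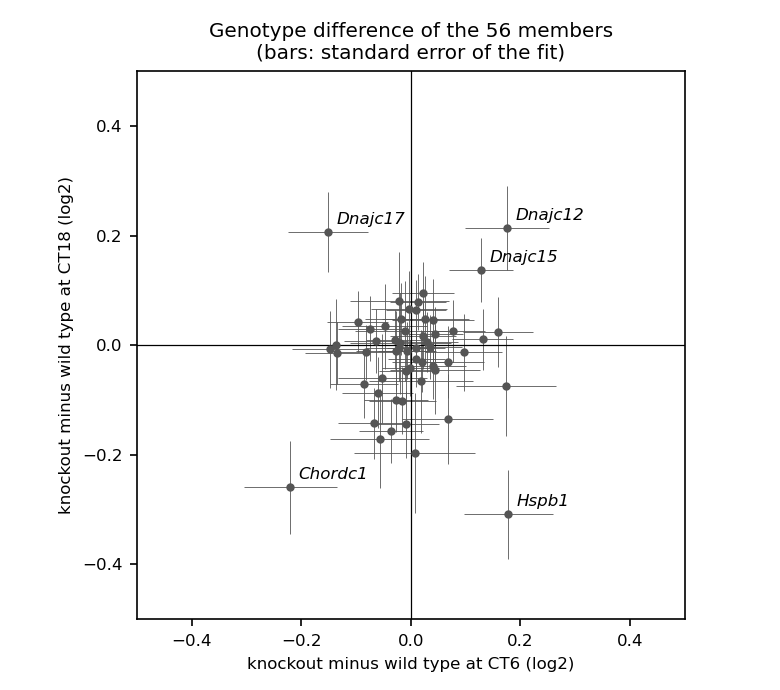
Knockout minus wild type at CT6 (horizontal axis) and at CT18 (vertical axis), in log2, for the 56 members tested; each point is a member and bars are standard errors of the fit. No member passed the test, and Hspb1, at 0.18 and -0.31, and Chordc1, at -0.22 and -0.26, lie farthest from the centre.

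Heat shock units were counted in promoter windows of 300 bases, 250 before and 50 from each RefSeq start (GRCm38.p6). A pair of units was GAANNTTC or TTCNNGAA, each of which reads the same on both strands. Windows were at hand for 54 of the 67 members and for 18 of the 20 that rose, and Hsp90aa1 and Hspa8 were the 2 without one. A pair was found for 10 of these 18 genes (55.6%): Chordc1, Hsph1, Hspb1, Hspa1a, Hspd1, Hspb8, Dnaja1, Hspe1, Dnaja4 and Dnajb4. It was found for 1 of the 25 tested members that were not called (4.00%, Hspb6), for 1 of the 2 falling members with a window (50%, Dnajc27) and for 17% of all 27025 genes with a window. By window the shares were 40.7% for the rising members, 3.12% for those not called and 15.1% for all genes, which matters because genes with several starts have several windows.

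Runs of 3 alternating units, in which the pairs overlap by 3 bases, were in 4 of the 18 rising genes (Chordc1, Hsph1, Hspd1 and Hspe1, printed above), in none of the 25 and in 0.662% of all genes. Hspd1 and Hspe1 hold the same site, which is counted for each of them, here and in the counts of genes with a pair. Dnajb6, under the level filter, also held a run. Tested members with a pair, the falling Dnajc27 among them, had a median day-night difference of 0.32 (n = 12) and those without one of 0.06 (n = 33). The largest difference, that of Dnajb1, was among those without.

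Other motifs were searched in the same windows on both strands. The E-box CACGTG, bound by the clock activators, was in 2 of the 18 rising members (11.1%), in 3 of the 25 not called (12.0%) and in 8.09% of all genes. The cyclic AMP response element TGACGTCA was in none of the 18 rising members, in 1 of the 2 falling members (Dnajc27), in none of the 25 not called and in 2.03% of all genes. The CCAAT box was in 8 of 18, 8 of 25 and 41.1%. A match describes letters and not binding, and the windows leave out more distant sites.

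**Figure D4:**
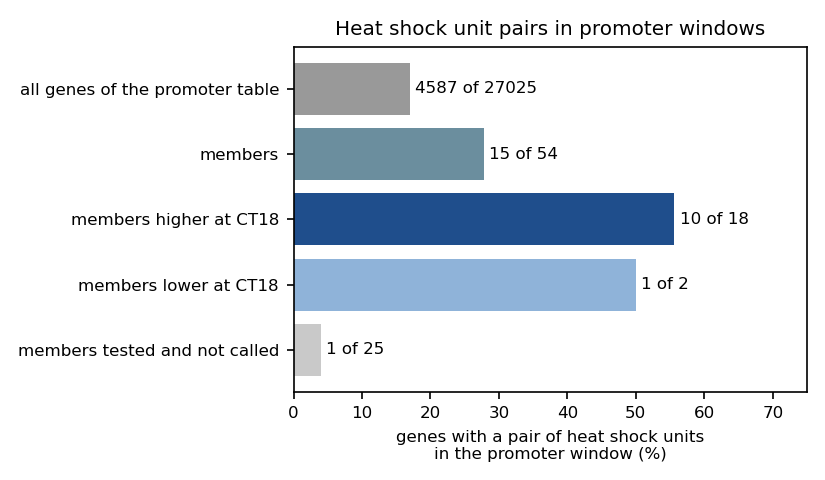
Share of genes (horizontal axis, percent, from 0) with at least 1 pair of heat shock units in the promoter window, for all genes of the promoter table, the members, the members higher at CT18, the members lower at CT18 and the members tested and not called; bars are labelled with counts. The bar of the members higher at CT18 is 55.6% and that of the members not called 4.00%, while the bar of the members lower at CT18 rests on 2 genes.

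Other genes of the pathway were read from lists set by function. Of 28 tested cofactors of HSP70 and HSP90, 5 rose over both genotypes and none fell, with a median of 0.05. Fkbp4, an HSP90 immunophilin, stood at 8.59 and 8.68 in wild type and 8.65 and 8.59 in the knockout at CT6, and at 9.09 and 9.22 against 9.08 and 9.21 at CT18. It rose by 0.52 ± 0.0489 (adjusted p = 0.000105). Ahsa2, a relative of Ahsa1 (0.35), Cacybp (0.31), St13, an HSP70-interacting protein (0.30), and Ppid, the cyclophilin of HSP90 (0.25), were the others. Bag3, the HSP70 cochaperone partnered with Hspb8, stood at 0.07 (adjusted p = 0.232).

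Of the 14 subunits of the cytosolic chaperonin CCT and of prefoldin, which both take part in the folding of actin and tubulin, 6 rose and none fell, with a median of 0.13. All 6 were CCT subunits, and those of smallest p were Cct7 (0.22), Cct6a (0.22), Cct3 (0.21) and Cct4 (0.19). In the 13 tested heat shock factors and other heat-inducible genes, 3 rose and 2 fell, with a median of -0.02. Hsf2, a second heat shock factor (0.29), Ier5 (0.28) and Jmjd6 (0.25) rose. The metallothionein Mt2 (-0.26) and Hikeshi, the nuclear import carrier of HSP70 (-0.22), fell. Of 6 endoplasmic reticulum chaperones, the 5 left out by the selection and Hsp90b1, Hspa5 (0.30) and Dnajb11 (0.16) rose and Dnajb9 (-0.23) fell. The counts for all genes tested, 10.0% higher and 6.79% lower, apply to these lists too.

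Markers of other cells were measured beside the members. At CT18 over both genotypes, 2 of 5 tested mural markers were called lower (Acta2 at -0.43 and Pdgfrb at -0.20). So were 2 of 4 ependymal markers (Rarres2 at -0.23 and Ccdc153 at -0.21) and 1 of 6 endothelial markers (Tek at -0.24). None of these lists had a marker called higher. The ependymal Foxj1 (0.12) and the endothelial Cldn5 (0.08) and Flt1 (0.03) went the other way without passing. The remaining ependymal and endothelial markers tested had negative differences that did not pass. The mean log2 level of 6 mural markers ran from 7.82 to 7.92 at CT6 and from 7.65 to 7.76 at CT18, and that of 7 endothelial markers from 7.84 to 7.92 and from 7.74 to 7.92. For 4 ependymal markers it ran from 9.18 to 9.32 and from 9.07 to 9.23. The 8 leptomeningeal markers varied most between arrays, from 7.80 to 8.26 at CT6 and from 7.67 to 8.24 at CT18. None of 7 leptomeningeal, 7 oligodendrocyte, 4 microglial and 4 neuronal markers tested was called, and of 7 astrocyte markers Fabp7 was lower (-0.72) and Slc1a3 higher (0.16). Their part in the changes of the heat shock genes was not tested.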

How the data were processed

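RNA of laser-dissected SCN was measured on 8 Affymetrix arrays in 4 groups of 2, with labelling kits per the labels' protocols. The authors deposited log2 values per probe set; their background correction, summarisation and normalization were not given in the sources used here. Because the lower quartile of the arrays differed by up to 0.139, values were quantile normalized. Of 28853 probe sets 21789 carried 1 gene symbol in the platform annotation, 1621 several and 5443 none, and 21698 were matched by Entrez identifier to RefSeq (GRCm38.p6). The brightest probe set stood for each of 19938 genes, and the 12452 at or over the 40th percentile were tested. Limma 3.58.1 (R 4.3.3) fitted a mean per group over all 8 arrays, with 4 residual degrees of freedom, moderated variances (eBayes) and Benjamini-Hochberg adjustment, for 7 contrasts. The fit was tested on simulated data. The number of arrays limits the precision.

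The arrays are stated to be biological replicates, but each is a pool. The p-values therefore set a group difference against the moderated spread between pools, not between animals. Array letters did not pair the samples: the deviations of A arrays correlated between -0.222 and 0.257 across pairs of groups. Alternatives were the values as deposited, median centring, no level filter or one at the 50th percentile, the mean of all probe sets, an intensity trend, the letter as a block and each array left out. Leaving out both CT18 A arrays was added after the data were seen.

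The members and all lists were chosen with earlier results of these data known. Array values are given for the 12 called members with the largest day-night difference, the 3 of smallest p in the interaction and in the genotype comparison, and a fixed list of classical members. Those of Hspa4l are given as well, outside these rules. Of other pathway lists up to 4 called genes of smallest p are named. Ahsa2, Ier5, Bag3, the marker genes and the Hspb1 and Dnajb1 promoters were chosen after their values or motifs were seen.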

Additional observations from a re-analysis of the deposited data

Results flagged for a closer look

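For Hspb1 the day-night difference was 0.80 in wild type and 0.31 in the knockout, an interaction of -0.49 ± 0.115 (95% interval -0.74 to -0.23). It is listed because the test of this difference gave an unadjusted p of 0.00191 in limma; the adjusted p was 0.944, so it did not pass. Both knockout arrays were above both wild-type arrays at CT6 and below both at CT18.

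Dnajc17 is listed for the same reason, with an interaction of 0.36 ± 0.103 (95% interval 0.13 to 0.59), an unadjusted p of 0.00623 and an adjusted p of 0.944 in limma. Its CT18 arrays were below its CT6 arrays in wild type and overlapped them in the knockout. The promoter window of Dnajc17 lies on chromosome 2 (GRCm38.p6, chr2:119208746-119209045), and its distance from the Gpr176 gene was not examined. Of all 12452 genes 605 had an unadjusted p under 0.05 in this test.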

How the results depend on the processing

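No day-night difference of a member called in that comparison changed sign in any of the 16 alternatives; differences that were not called were not followed through them. The count of members higher at CT18 over both genotypes ran from 15 to 20 and that of members lower from 1 to 4. The 15 and the 1 came from leaving out both CT18 A arrays, an alternative chosen after seeing the data. With single arrays left out the ranges were 16 to 20 higher, 2 to 4 lower, 11 to 15 called in wild type and 6 to 11 called in the knockout. The knockout count was 9 with no level filter, where more genes are tested, and 7 without both CT18 A arrays. With the array letter as a replicate block there were 19 higher, 3 lower, 14 called in wild type and 10 in the knockout, and the genotype and interaction counts stayed at 0, as in every alternative run. Of the 23 members called over both genotypes 14 kept the call in all 16 alternatives, as did 9 of 15 in wild type and 6 of 14 in the knockout. Each group rests on 2 arrays, and the standard error of a typical gene was 0.0636 for a comparison of single groups and 0.0899 for the interaction.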
